A study of Mus musculus with 64 samples.

Results

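Dopamine receptor genes and the genes of DARPP-32 signalling were followed in the brain of mice carrying the Arg87Cys change in Cyfip2. The set holds 8 genes of the 18432 in the table: the receptors Drd1, Drd2, Drd4 and Drd5, the phosphatase regulator Ppp1r1b (DARPP-32), the adenosine receptor Adora2a, the G protein regulator Rgs9 and the adenylate cyclase Adcy5. They were selected by symbol with measured values of this table already known, above all the rise of Drd4 in mutant cortex at postnatal week (PWK) 14. Their values in that contrast are therefore given as a description, without a test. The hippocampal libraries of PWK 14 came from the same mice, so tests there are not independent of that choice.

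RNA was sequenced from frontal cortex and hippocampus, taken from both hemispheres of Cyfip2 +/R87C knock-in mice (KI, Arg87Cys in 1 copy of Cyfip2) and of their wild-type littermates (WT), all on the C57BL/6N strain. Mice were sampled at PWK 1, 7, 14 and 28, with 4 mice in each age-genotype group, which gave 16 groups and 64 libraries. The knock-in was carried in the germline, and each library was bulk tissue, so that fewer cells of a type and less RNA per cell cannot be told apart. Values are gene counts estimated and normalised by the authors, called normalised values here, and fold changes are differences of log2(value + 1), which understate the change of weakly expressed genes.

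Dopamine acts on G protein coupled receptors of 2 families. The D1-like receptors, encoded by Drd1 and Drd5, raise cyclic AMP, and the D2-like receptors, encoded here by Drd2 and Drd4, lower it. Cyclic AMP activates protein kinase A, which phosphorylates DARPP-32 and turns it into an inhibitor of protein phosphatase 1. Drd1, Drd2, Adora2a, Ppp1r1b, Rgs9 and Adcy5 are best known from the medium spiny neurons of the striatum, where Drd1 marks the direct and Drd2 with Adora2a the indirect pathway. These striatal genes are expressed at lower levels in cortex and hippocampus, and a cortical piece that includes striatum carries them with it.

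All 8 genes are protein-coding, with these positions on GRCm38. Drd1 lies on chromosome 13 (54051183 to 54055705, minus strand), Drd2 on chromosome 9 (49340627 to 49408177, plus strand), Drd4 on chromosome 7 (141292006 to 141296464, plus strand) and Drd5 on chromosome 5 (38319367 to 38322518, plus strand). Ppp1r1b lies on chromosome 11 (98348404 to 98357796, plus strand), Adora2a on chromosome 10 (75316877 to 75334784, plus strand), Rgs9 on chromosome 11 (109225355 to 109298129, minus strand) and Adcy5 on chromosome 16 (35154877 to 35305738, plus strand). Drd5 is overlapped on the opposite strand by Gm26560, Ppp1r1b on the opposite strand by 1700003D09Rik, and Adcy5 on its own strand by Gm49702, so reads from these overlaps could be shared. RefSeq promoter windows on GRCm38.p6 matched 6 of the 8 genes.

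The stretches in front of Drd4 and Drd1 are shown because these were the receptor genes that were higher in KI hippocampus. They end where the annotated gene starts and are written 5′ to 3′ on the gene's strand, with GC boxes (GGGCGG on either strand, which bind Sp1-type factors) in capitals. The Drd4 stretch covers chr7:141291768-141292005 (plus strand) and the Drd1 stretch chr13:54055706-54055908 (minus strand).
Drd4: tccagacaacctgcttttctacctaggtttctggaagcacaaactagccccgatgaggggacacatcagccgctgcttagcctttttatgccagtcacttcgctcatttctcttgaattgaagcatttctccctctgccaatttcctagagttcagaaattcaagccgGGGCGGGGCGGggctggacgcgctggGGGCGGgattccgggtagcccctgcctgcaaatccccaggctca
Drd1: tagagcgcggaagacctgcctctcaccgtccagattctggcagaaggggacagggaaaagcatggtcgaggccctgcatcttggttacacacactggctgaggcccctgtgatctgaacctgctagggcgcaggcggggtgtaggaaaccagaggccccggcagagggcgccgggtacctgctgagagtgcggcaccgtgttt
The printed Drd4 stretch holds 3 GC boxes and the printed Drd1 stretch 0, while the whole windows of 300 bases hold 3 for Drd4 and 1 in each window of Drd1. Across all 32851 RefSeq windows of 300 bases, 35.7% hold at least 1 GC box. The cyclic AMP response element TGACGTCA, its half-site TGACG and the AP-1 site TGANTCA, searched on both strands, are in 1.79%, 20.8% and 7.81% of all windows. None of these 3 letter strings is in any of the 7 windows of 300 bases found for these genes. The half-site is part of the full element, and the GC box was added after these 3 gave no match.

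Striatal genes were examined first as a check on dissection. The list held 20 striatum-enriched genes, of which 19 were in the table, and its level in a library is the mean of log2(value + 1) over them. In 2 cortical libraries this level stood apart. WT replicate 1 at PWK 1 was at 9.81, against 7.56 to 7.69 in the other WT libraries of that age, and KI replicate 2 at PWK 14 was at 9.88, against 7.99 to 8.09. All 19 list genes were highest in the first library within its group, and 17 of 19 in the second. Isl1, a transcription factor of direct pathway neurons, was at 113 in the first library and listed at 0 in the other 3, and at 30.5 in the second, the highest of its group.

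The same libraries carried high values of the genes described here. Drd2 was 461 in WT replicate 1 at PWK 1, against 60.9 to 78.1 in the other libraries of the group, and 554 in KI replicate 2 at PWK 14, against 30.4 to 34.6. Of the 8 genes, 7 were highest in the first library (not Drd4) and 6 in the second (neither Drd4 nor Drd5). Comparisons that include these libraries are therefore also given without them.

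Smaller differences in the striatal level ran through the other cortical groups. At PWK 28 it lay between 8.49 and 9.39 in WT and between 7.88 and 9.01 in KI cortex. The hippocampal groups were more even, between 7.43 and 8.31 over all 32 libraries, and the summed values of the list lay there between 22324 and 31925. Within groups, Drd2 followed the striatal level most closely in cortex, with a Pearson r of 0.95 between deviations from the group means over 32 libraries and 0.93 over the 30 without the libraries that stood apart. Adcy5 (0.90 and 0.73), Rgs9 (0.88 and 0.67), Drd1 (0.86 and 0.52), Ppp1r1b (0.82 and 0.47) and Adora2a (0.80 and 0.49) also followed it. Drd5 was weaker (0.37 and 0.05), and Drd4 did not follow it (0.04 and -0.11). In hippocampus r lay between -0.29 for Drd5 and 0.41 for Drd2. All libraries come from the same normalised table, and the values of r are descriptions.

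**Figure D1:**
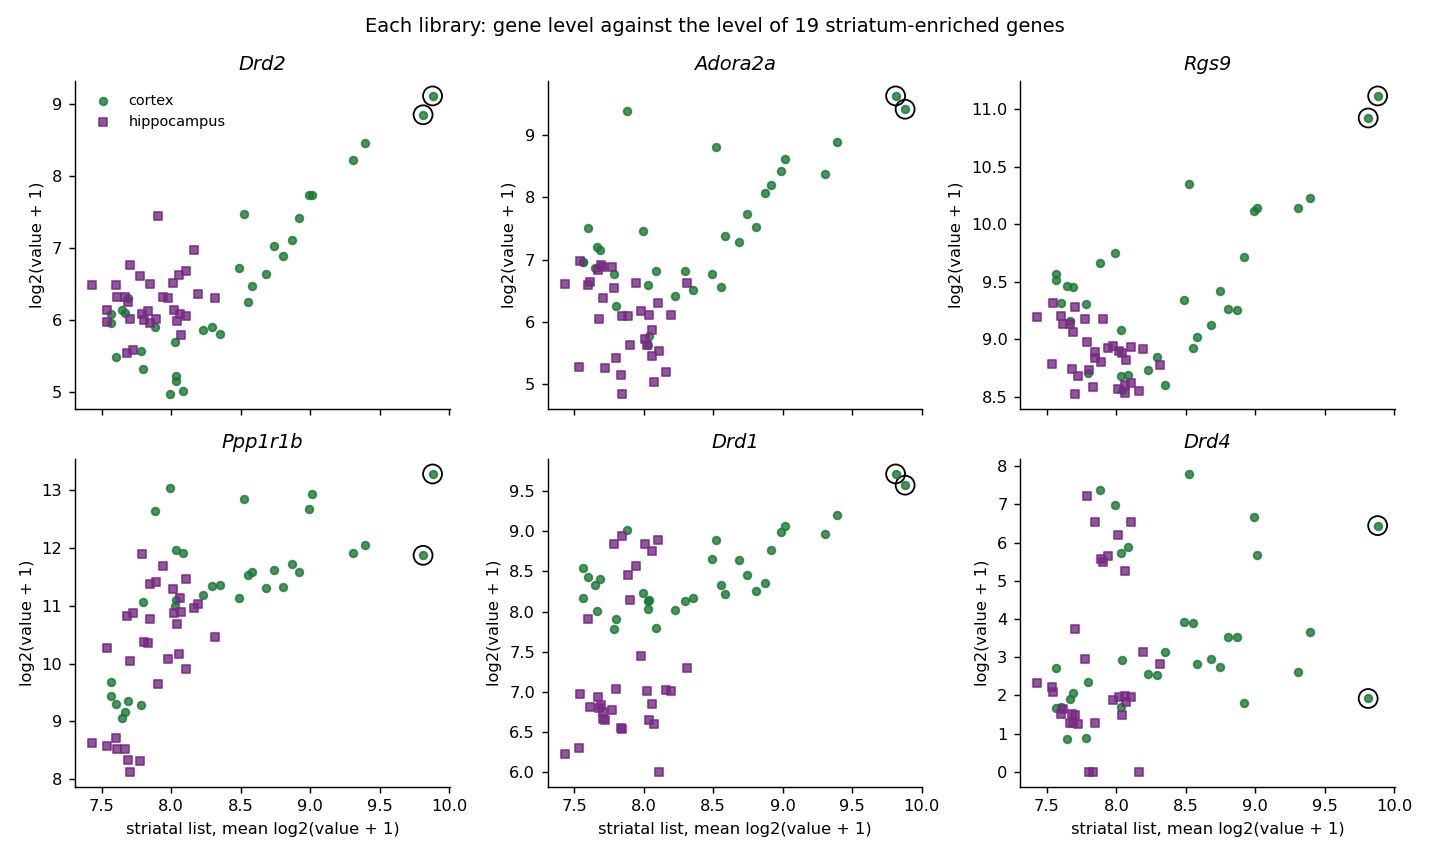
Level of 6 of the genes, as log2(value + 1), against the mean log2(value + 1) of 19 striatum-enriched genes, with 1 point per library (circles cortex, squares hippocampus, 64 in all). The 2 ringed cortical libraries, at 9.81 and 9.88, lie at the right end of every panel and are among the highest for Drd2, Adora2a, Rgs9 and Drd1.

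The markers of the labelled regions were present where they should be. The mean log2 level of 8 neocortical genes was 10.4 to 11.4 in cortical and 8.97 to 10.1 in hippocampal libraries, and that of 8 hippocampal genes 7.37 to 8.42 in cortical and 10.4 to 11.7 in hippocampal libraries. Some of these lists moved with genotype. The neocortical level in cortex at PWK 28 was lower in every KI library than in every WT library, with a lowest value of 10.4 in KI and 11.1 in WT. The hippocampal level in hippocampus was 10.8 to 11.3 in KI and 11.3 to 11.7 in WT libraries at PWK 14, and 11.1 to 11.3 and 11.3 to 11.4 at PWK 28. Choroid plexus genes, a sign of attached tissue, varied widely in hippocampus, from 4.54 to 12.0, and their ranges overlapped between KI and WT at each age. In cortex at PWK 28 their level was 9.45 in WT replicate 2, against 5.36 to 6.17 in the other WT libraries. That library is part of the comparisons with WT cortex at PWK 28. Within hippocampal groups Ppp1r1b followed the choroid plexus level (r = 0.80 between deviations over 32 libraries, as a description), while the other 7 genes lay between -0.31 and 0.22. The choroid plexus level was therefore added as a covariate for hippocampus, an alternative chosen after seeing the data. The part of the neocortical and hippocampal markers in the results was not tested.

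**Figure D2:**
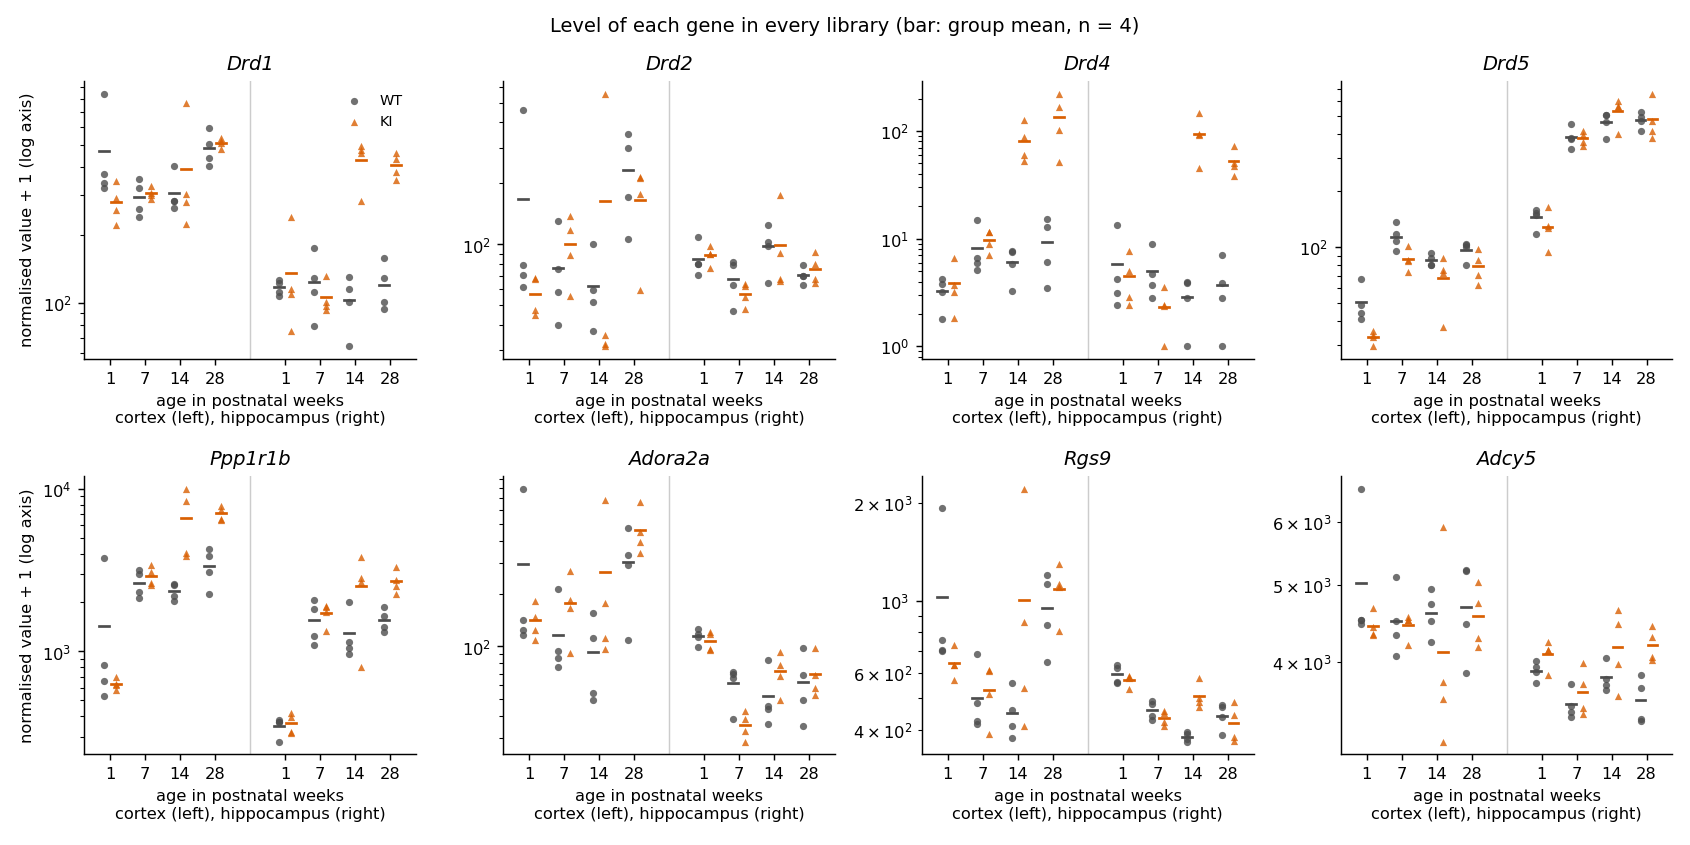
Normalised value + 1 (log axis) of each gene in every library, by age in postnatal weeks, with cortex left and hippocampus right of the grey line, WT as grey circles and KI as orange triangles. Bars are group means of 4 mice. Drd4 in KI mice at PWK 14 and 28 lies above all WT libraries of the same age and region in both regions, and Drd1 does so in hippocampus.

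Drd4 encodes a D2-like receptor of cortical and hippocampal neurons, and it had the lowest level of the 8 genes in WT mice. Per kilobase of exon, its WT mean at PWK 28 was 2.48 ± 1.63 (SD, n = 4) in cortex and 0.795 ± 0.754 (SD, n = 4) in hippocampus, against 30.3 and 151.6 for Drd5 and 133.2 and 32.8 for Drd1. At PWK 14 in cortex, WT libraries were at 2.27, 6.54, 6.72 and 4.79 and KI libraries at 124.5, 86.1, 51.6 and 58.5. All KI libraries were above all WT libraries, with means of 5.08 ± 2.07 and 80.2 ± 33.1 (SD, n = 4). Without KI replicate 2 the KI mean was 78.2.

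Drd4 was also higher in KI mice in the 3 other comparisons at these ages. At PWK 28 in cortex, WT libraries were at 11.7, 5.11, 14.3 and 2.48 and KI libraries at 221.1, 100.2, 166.1 and 50.2. The groups did not overlap, and the log2 fold change was 3.88 (adjusted p = 0.00101, SE 0.54, limma with Benjamini-Hochberg adjustment over all genes, as for every adjusted p here). Hippocampal WT libraries at PWK 14 were at 2.88, 2.93, 0 and 1.80 and KI libraries at 43.9, 91.6, 146.7 and 91.9. The log2 fold change was 5.09 (adjusted p = 0.000833, SE 0.52). These mice also gave the cortical PWK 14 libraries that entered the choice of genes, so this test is not independent of it. At PWK 28 hippocampal WT libraries were at 6.07, 0, 1.80 and 2.89 and KI libraries at 49.0, 72.2, 46.1 and 37.2. The log2 fold change was 4.10 (adjusted p = 0.000556, SE 0.52), and here too the lowest KI library was above the highest WT library. The WT values are close to 0, so that these fold changes depend on the pseudocount.

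The nearest gene in the table on either side of Drd4 was examined for comparison, and annotated genes absent from the table were passed over. Deaf1, a transcription factor gene that lies 716 bp downstream of Drd4 on the other strand, fell by 0.39 in KI hippocampus at PWK 14 (adjusted p = 0.0196), and was not called at PWK 28, at 0.01 in hippocampus (adjusted p = 0.95) and 0.18 in cortex (adjusted p = 0.155). Irf7, an interferon response factor 25525 bp away on the other side, was higher in KI mice at PWK 28, in cortex by 1.80 (adjusted p = 0.00454) and in hippocampus by 1.40 (adjusted p = 0.0459). At PWK 14 in hippocampus Irf7 did not pass (log2 fold change 1.51, adjusted p = 0.0959).

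Drd2, the D2-like receptor of the striatal indirect pathway, was not called between genotypes in any of the 7 comparisons tested. Cortical WT libraries at PWK 28 were at 351.7, 299.1, 104.8 and 170.3 and KI libraries at 176.1, 213.4, 58.6 and 212.0. These ranges overlapped, and the log2 fold change was -0.50 with a 95% interval from -1.51 to 0.51. In hippocampus at PWK 28 it was at 63.9 to 90.7 in KI and 62.4 to 78.2 in WT libraries, and at PWK 14 the means were 98.8 and 96.8. In cortex at PWK 14 the direction turned on 1 library. The KI mean was 162.4 against 61.2 in WT with all libraries and 32.0 against 61.2 without KI replicate 2, when all 3 KI libraries were below all WT libraries.

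Drd1, the main D1-like receptor, was higher in KI hippocampus and was not called in the cortical comparisons that were tested. Hippocampal WT libraries at PWK 14 were at 63.0, 114.4, 129.1 and 99.7 and KI libraries at 281.1, 491.5, 460.0 and 472.5. The groups did not overlap, and KI replicate 1 was well below the other KI libraries. The log2 fold change was 2.07 (adjusted p = 0.0015, SE 0.25). At PWK 28, WT libraries were at 156.1, 92.7, 99.2 and 128.0 and KI libraries at 378.1, 457.9, 349.0 and 430.9. The log2 fold change was 1.78 (adjusted p = 8.41e-05, SE 0.16), again without overlap. Cortical libraries at PWK 28 were at 475.9 to 533.4 in KI and 402.9 to 591.4 in WT, with a log2 fold change of 0.09 (adjusted p = 0.632, SE 0.12). Cortical KI libraries at PWK 14 were at 300.1, 762.9, 278.5 and 221.7 and WT libraries at 260.3, 282.1, 399.9 and 280.0, which overlap.

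The difference between the regions was itself tested at PWK 28. The KI effect on Drd1 was larger in hippocampus by 1.69 on the log2 scale (adjusted p = 0.000403, SE 0.21), and Drd1 was the only 1 of the 8 genes called, against 4.57% of all 18413 genes. For Drd4 the corresponding difference was 0.22 (adjusted p = 0.929, SE 0.81), which does not show that the regions were alike. Between PWK 28 and PWK 14 in hippocampus the KI effect differed for 0 of the 8 genes, and for 0% of all genes tested (0 of 18411 in limma, with 2274 at an unadjusted p under 0.05).

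In the order of group means, KI hippocampus at PWK 14 (426.3) and PWK 28 (404.0) stood among the cortical groups for Drd1, between WT cortex at PWK 1 (467.9) and KI cortex at PWK 14 (390.8), and these neighbours overlap. Without the 2 libraries that stood apart these cortical means were 343.6 and 266.8, both below the 2 KI hippocampal means. The remaining hippocampal groups formed the lower end, from 101.5 to 133.7, and each overlaps its neighbours. The striatal level in hippocampus overlapped between genotypes. It lay between 7.70 and 8.16 in WT and 7.79 and 8.10 in KI libraries at PWK 14, and between 7.83 and 8.31 in WT and 7.89 and 8.06 in KI libraries at PWK 28. At PWK 14, 3 of its 19 genes were called higher in KI hippocampus and 4 lower, with a median log2 fold change of -0.27, where 15.6% of all genes were called. At PWK 28, 2 were higher and 6 lower, with a median of -0.23 against 0.00 for all genes, of which 15.8% were called. The higher genes at PWK 28 included Penk, the enkephalin precursor (553.7 in WT and 2251 in KI, log2 fold change 2.05, adjusted p = 1.34e-05), and the lower ones Rasd2, a striatal small G protein (1401 and 819.5, log2 fold change -0.78, adjusted p = 0.000221). At PWK 28 Isl1 was at 0 to 1.67 in KI and at 3.94 to 14.0 in WT libraries, while Six3, Gpr6 and Ido1 overlapped. Serpina9, also on the list, went the other way. It was at 10.8 to 47.3 in KI and at 0 to 3.29 in WT libraries at PWK 14. At PWK 28 it was at 11.2 to 30.8 in KI and at 1.84 to 25.4 in WT, which overlap. With the striatal level as a covariate the log2 fold change of Drd1 was 2.08 at PWK 14 and 1.90 at PWK 28.

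Drd5, the other D1-like receptor gene, is known for its expression in hippocampus. It was not called between genotypes in any comparison tested. At PWK 28 hippocampal WT libraries were at 495.0, 529.0, 416.1 and 471.4 and KI libraries at 383.1, 659.7, 471.8 and 414.3. The ranges overlapped, with a log2 fold change of -0.01 and a 95% interval from -0.35 to 0.32. In cortex at PWK 1 all KI libraries (28.4 to 34.7) were below all WT libraries (40.4 to 66.6), but the difference of -0.59 on the log2 scale (SE 0.20) did not pass (adjusted p = 0.908). Without WT replicate 1 it was -0.45 (adjusted p = 0.998, SE 0.18), still without overlap.

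Ppp1r1b, which encodes DARPP-32, was higher in KI mice in both regions. Cortical WT libraries at PWK 28 were at 4276, 3886, 2254 and 3072 and KI libraries at 7422, 6529, 6423 and 7844. The groups did not overlap, and the log2 fold change was 1.10 (adjusted p = 0.00166, SE 0.17). With the striatal level as a covariate it was 1.30 (adjusted p = 0.00112). At PWK 28 hippocampal WT libraries were at 1405, 1316, 1647 and 1879 and KI libraries at 3290, 2521, 2739 and 2244. They did not overlap, with a log2 fold change of 0.79 (adjusted p = 0.00213, SE 0.13), and it did not pass in a fit of all 64 libraries together (adjusted p = 0.106). The choroid plexus level was 10.2 to 12.0 in these WT libraries and lay within that range in the KI libraries, and with it as a covariate the difference was 0.73 (adjusted p = 0.000387, SE 0.08).

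At PWK 14 the picture for Ppp1r1b was less even. In hippocampus WT libraries were at 963.6, 1144, 2003 and 1055 and KI libraries at 800.8, 2655, 3801 and 2835. KI replicate 1 was below every WT library, and the log2 fold change of 0.82 (SE 0.44) did not pass (adjusted p = 0.231). The choroid plexus level of these libraries, in the same order, was 7.46, 9.11, 11.7 and 6.84 in WT and 7.24, 9.72, 11.7 and 11.4 in KI mice, lowest in KI replicate 1 within its group and highest in WT replicate 3 and KI replicate 3. With this level as a covariate the difference was 0.43 (adjusted p = 0.223, SE 0.23). In cortex WT libraries were at 2043, 2194, 2545 and 2614 and KI libraries at 8405, 9981, 4004 and 3878. All KI libraries were above all WT libraries, and the KI mean was 5429 against 2349 in WT without KI replicate 2. The difference of the KI effect between regions at PWK 28 was -0.31 (adjusted p = 0.53, SE 0.23).

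Adora2a, the Gs-coupled adenosine receptor that opposes D2 signalling in indirect pathway neurons, was not called between genotypes in any comparison tested. Cortical WT libraries at PWK 28 were at 476.5, 330.1, 107.4 and 291.9 and KI libraries at 447.3, 340.9, 669.9 and 392.7. The log2 fold change was 0.75 with a 95% interval from -0.10 to 1.60. KI replicate 3 was the highest of these libraries for Adora2a and the lowest for the striatal list and Drd2. The cortical KI mean at PWK 14 was 266.4 against 92.0 in WT, and 127.4 without KI replicate 2.

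Rgs9, whose product speeds the shut-off of G protein signals downstream of D2 receptors, was higher in KI hippocampus at PWK 14. WT libraries were at 391.6, 387.3, 373.4 and 366.9 and KI libraries at 575.8, 471.2, 500.8 and 487.8, without overlap. The log2 fold change was 0.42 (adjusted p = 0.013, SE 0.09), and in the fit of all 64 libraries it did not pass (adjusted p = 0.217). At PWK 28 it was -0.08 (adjusted p = 0.685, SE 0.11), with means of 419.4 in KI and 440.9 in WT. The cortical KI mean at PWK 14 of 1006 fell to 602.4 without KI replicate 2, against 449.8 in WT.

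Adcy5, the main adenylate cyclase of striatal neurons, was called between genotypes in 1 comparison. At PWK 28 hippocampal WT libraries were at 3844, 3364, 3707 and 3382 and KI libraries at 4050, 4015, 4293 and 4434. They did not overlap, and the log2 fold change was 0.23 (adjusted p = 0.0175, SE 0.06). The call was lost without WT replicate 2 (adjusted p = 0.0538), without WT replicate 4 (adjusted p = 0.0569) and in the fit of all 64 libraries (adjusted p = 0.125). Cortical KI libraries at PWK 14 were at 3769, 5902, 3587 and 3171 and WT libraries at 4504, 4232, 4722 and 4939, so that the 3 KI libraries other than replicate 2 were below all WT libraries.

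**Figure D3:**
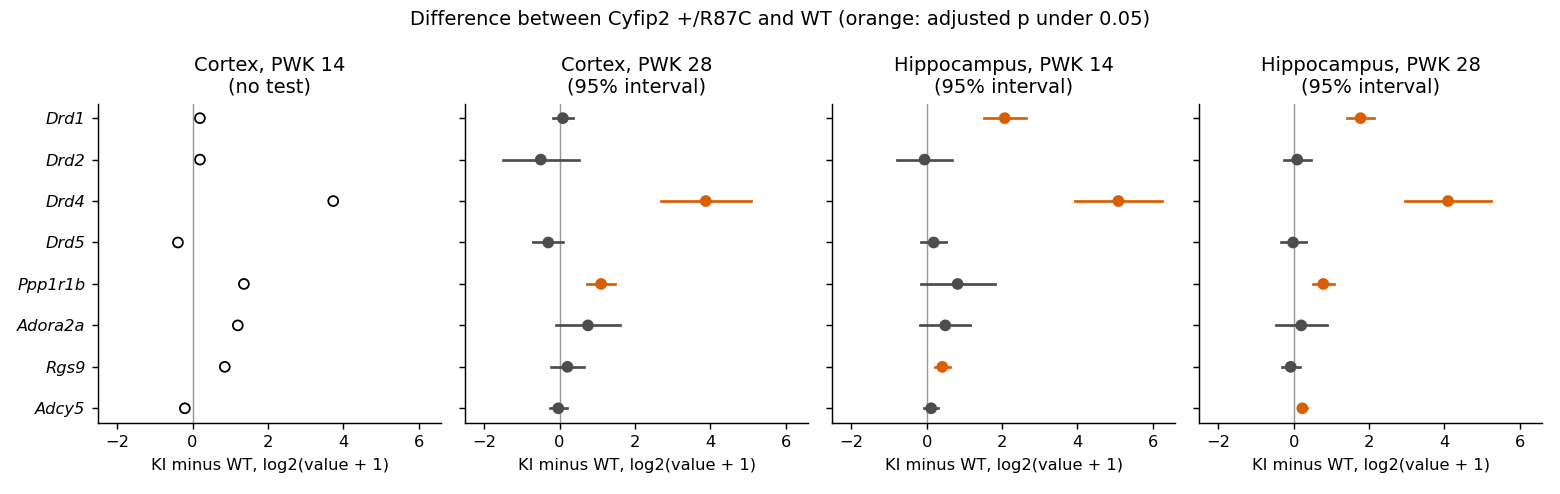
KI minus WT on the log2(value + 1) scale for each gene, with 95% intervals from limma (4 KI and 4 WT libraries per panel). Orange marks an adjusted p under 0.05, and open points in the left panel carry no test because that contrast entered the choice of genes. Drd4 lies at 3.88, 5.09 and 4.10 in the 3 tested panels, and Drd1 at 2.07 and 1.78 in hippocampus and at 0.09 in cortex.

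Counted over the 8 genes, 2 were called in KI cortex at PWK 28 (Drd4 and Ppp1r1b), where 22.2% of 18387 genes were called. In hippocampus 3 were called at PWK 14 (Drd1, Drd4 and Rgs9) against 15.6% of 18405 genes, and 4 at PWK 28 (Drd1, Drd4, Ppp1r1b and Adcy5) against 15.8% of 18389. All of these were higher in KI mice. In cortex at PWK 14, 2 of the 8 genes had KI and WT libraries that did not overlap (Drd4 and Ppp1r1b, both higher), where 14.2% of all genes did not overlap and limma called 5.18%. Without KI replicate 2 it was 4 of 8, with Drd2 and Adcy5 lower in KI mice, against 17.2% of all genes. Since this contrast entered the choice of genes, nothing is read from its counts.

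At the earlier ages 0 of the 8 genes were called. In cortex, limma called 0.00546% of 18311 genes at PWK 1 (1 gene, with 965 genes at an unadjusted p under 0.05) and 0.00545% of 18358 at PWK 7 (1 gene, with 1477). In hippocampus it called 0.0109% of 18361 at PWK 1 (2 genes, with 1003) and 0.0218% of 18390 at PWK 7 (4 genes, with 1144). Drd4 was at 0.807 to 5.63 in cortex at PWK 1 and at 4.10 to 13.9 in cortex at PWK 7. In hippocampus it was at 1.43 to 12.4 at PWK 1 and at 0 to 7.87 at PWK 7. The genotypes overlapped throughout. Drd1 in hippocampus at PWK 7 was at 77.5 to 173.4 in WT and 91.9 to 129.9 in KI mice. Without WT replicate 1 at PWK 1, the log2 fold change of Ppp1r1b in cortex moved from -0.69 (SE 0.47) to -0.06 (SE 0.13), and neither passed.

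The wider pathway was described through 76 genes in 6 lists, 5 of which are also on the striatal list. At PWK 1 and 7, 0 of the 76 were called in either region. In cortex at PWK 14, 9 were called (6 higher, 3 lower), which is 11.8% against 5.18% of all genes. In cortex 26 were called at PWK 28, of which 13 were higher and 13 lower. In hippocampus 19 were called at PWK 14 (10 higher, 9 lower) and 25 at PWK 28 (19 higher, 6 lower). The counts in cortex at PWK 28 and in hippocampus at PWK 14 and 28 are 34.2%, 25% and 32.9% of the 76. Of all genes, 22.2%, 15.6% and 15.8% were called there. Their median log2 fold change lay between 0.02 and 0.07 in these 3 comparisons, and that of all genes between -0.003 and 0.006.

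Of the 9 genes for dopamine synthesis, transport and breakdown, 4 were higher and 0 lower in KI hippocampus at PWK 28, where 15.8% of all genes were called. Th, the rate-limiting enzyme of dopamine synthesis, went from 11.5 to 102.4 (log2 fold change 3.05, adjusted p = 1.53e-05) and Slc18a2, the vesicular monoamine transporter, from 77.4 to 226.8 (1.57, adjusted p = 0.0013). Maoa, a monoamine oxidase, was higher there by 0.28 (adjusted p = 0.031). At PWK 14 in hippocampus Th went from 12.2 to 86.8 (2.93, adjusted p = 0.00362) and was the only 1 of the 9 called. In cortex at PWK 28 Maoa alone was called, at 976.4 in WT and 1349 in KI mice (0.45, adjusted p = 0.0227).

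Of the 15 G protein and cyclase genes, 2 were higher and 4 lower in KI cortex at PWK 28, where 22.2% of all genes were called. Gnb5, the Gβ5 subunit that pairs with RGS proteins such as RGS9, fell by 0.64 (adjusted p = 0.000668), Adcy7 was higher by 0.81 (adjusted p = 0.00181) and Adcy8 fell by 1.05 (adjusted p = 0.00199). In hippocampus the same list had 0 higher and 3 lower at PWK 14, and 2 higher and 3 lower at PWK 28. Adcy7 was higher there by 0.71 at PWK 28 (adjusted p = 0.00169). Gng7, a striatal Gγ subunit, fell by 0.31 (adjusted p = 0.0117).

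Of the 14 genes for RGS proteins, receptor kinases and arrestins, 5 were higher and 2 lower in KI hippocampus at PWK 14, and 4 were higher and 0 lower at PWK 28, against 15.6% and 15.8% of all genes called. Rgs2 went from 799.7 to 2248 at PWK 14 (1.45, adjusted p = 0.00239) and Rgs4 from 3334 to 9370 (1.43, adjusted p = 0.00263). At PWK 28 their log2 fold changes were 1.28 (adjusted p = 0.00325) and 0.95 (adjusted p = 0.000126). In cortex at PWK 28, 4 were higher and 2 lower, among them Rgs10 (higher by 0.64, adjusted p = 0.00427) and Grk2, a receptor kinase, which fell by 0.42 (adjusted p = 0.00481).

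Of the 13 protein kinase A and phosphodiesterase genes, 3 were higher and 2 lower in KI cortex at PWK 28, against 22.2% of all genes. Pde1a, a calcium-activated phosphodiesterase, went from 7135 to 14837 (1.04, adjusted p = 0.000293) and Prkar1b, a kinase A regulatory subunit, from 25055 to 37287 (0.57, adjusted p = 0.000531). In hippocampus 1 was higher and 1 lower at PWK 14, and 4 were higher and 2 lower at PWK 28, with Prkar1b higher by 0.51 (adjusted p = 0.00665) and 0.54 (adjusted p = 2.68e-05). Pde10a, the striatal phosphodiesterase, fell by 0.24 in hippocampus at PWK 28 (adjusted p = 0.0118).

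Of the 18 genes for phosphatases, kinases and relatives of DARPP-32, 2 were higher and 4 lower in KI cortex at PWK 28, 3 were higher and 3 lower in hippocampus at PWK 14, and 4 were higher and 0 lower in hippocampus at PWK 28. The shares of all genes called in these comparisons were 22.2%, 15.6% and 15.8%. Ensa, a phosphatase 2A inhibitor, was higher in cortex at PWK 28 by 0.54 (adjusted p = 0.000689), and Arpp21, another cyclic AMP regulated phosphoprotein, fell by 0.65 (adjusted p = 0.000969). Ppp1cc, a catalytic subunit of the phosphatase that DARPP-32 inhibits, fell by 0.43 in hippocampus at PWK 14 (adjusted p = 0.00204). Ptpn5, the striatum-enriched phosphatase STEP, was higher in hippocampus by 0.55 at PWK 14 (adjusted p = 0.01) and by 0.53 at PWK 28 (adjusted p = 0.000148). Of the 7 other adenosine genes, 1 was higher and 1 lower in each region at PWK 28 and 0 were called in hippocampus at PWK 14. Adora1, the Gi-coupled adenosine receptor, went from 6681 to 10236 in cortex at PWK 28 (0.61, adjusted p = 0.00168), and Adk, adenosine kinase, was higher in hippocampus by 0.26 (adjusted p = 0.0105).

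The regions of WT mice were then compared. Of the 19 striatal list genes, 6, 11, 12 and 15 were lower in hippocampus at PWK 1, 7, 14 and 28. At these ages 1, 2, 3 and 2 were higher, where 34.7%, 40.8%, 34.6% and 37.8% of all genes were called. The part of the striatal level in the regional differences, and of the choroid plexus level in that of Ppp1r1b, was not tested. Drd5 was higher in hippocampus at each age, by 1.53, 1.77, 2.44 and 2.32 on the log2 scale at PWK 1, 7, 14 and 28 (adjusted p from 2.65e-08 to 5.07e-05). At PWK 28 it was at 78.6 to 102.7 in cortex and at 416.1 to 529.0 in hippocampus. Drd1 went the other way, with log2 differences of -1.89, -1.29, -1.61 and -2.03 (adjusted p from 2.30e-06 to 0.000541). At PWK 28 it was at 402.9 to 591.4 in cortex and at 92.7 to 156.1 in hippocampus. The 2 D1-like receptor genes thus had opposite regional orders at all 4 ages.

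Ppp1r1b and Adcy5 were also lower in hippocampus at each age. For Ppp1r1b the log2 differences were -1.56, -0.80, -0.92 and -1.08 (adjusted p from 0.000463 to 0.026), and for Adcy5 -0.35, -0.34, -0.27 and -0.38 (adjusted p from 0.00115 to 0.0276). At PWK 1 the call of Ppp1r1b was lost without hippocampal replicate 1, 3 or 4 (adjusted p from 0.05 to 0.0639) and that of Adcy5 without hippocampal replicate 1, 2 or 3 (adjusted p from 0.0545 to 0.0674). At PWK 28 Drd2 (-1.57, adjusted p = 0.00182), Adora2a (-2.19, adjusted p = 0.00149) and Rgs9 (-1.07, adjusted p = 0.000331) were lower as well. At that age the striatal level was 8.49 to 9.39 in WT cortex and 7.83 to 8.31 in WT hippocampus, and its part in these differences was not tested. Drd2 was not called at the other ages, and at PWK 14 its mean was 96.8 in hippocampus and 61.2 in cortex (0.71, adjusted p = 0.08). Drd4 was not called between regions at any age.

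The counts over the 8 genes were 4, 4, 4 and 7 at PWK 1, 7, 14 and 28, where 34.7%, 40.8%, 34.6% and 37.8% of all genes were called. Without WT cortical replicate 1, 5 were called at PWK 1 against 38.2% of all genes. Rgs9 was then among them (-0.28, adjusted p = 0.00875), and the difference of Drd1 was -1.56 (adjusted p = 1.08e-06), that of Ppp1r1b -0.93 (adjusted p = 0.000508) that of Adcy5 -0.21 (adjusted p = 0.00117), that of Drd5 1.67 (adjusted p = 8.33e-06) and that of Drd2 0.26 (adjusted p = 0.299).

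**Figure D4:**
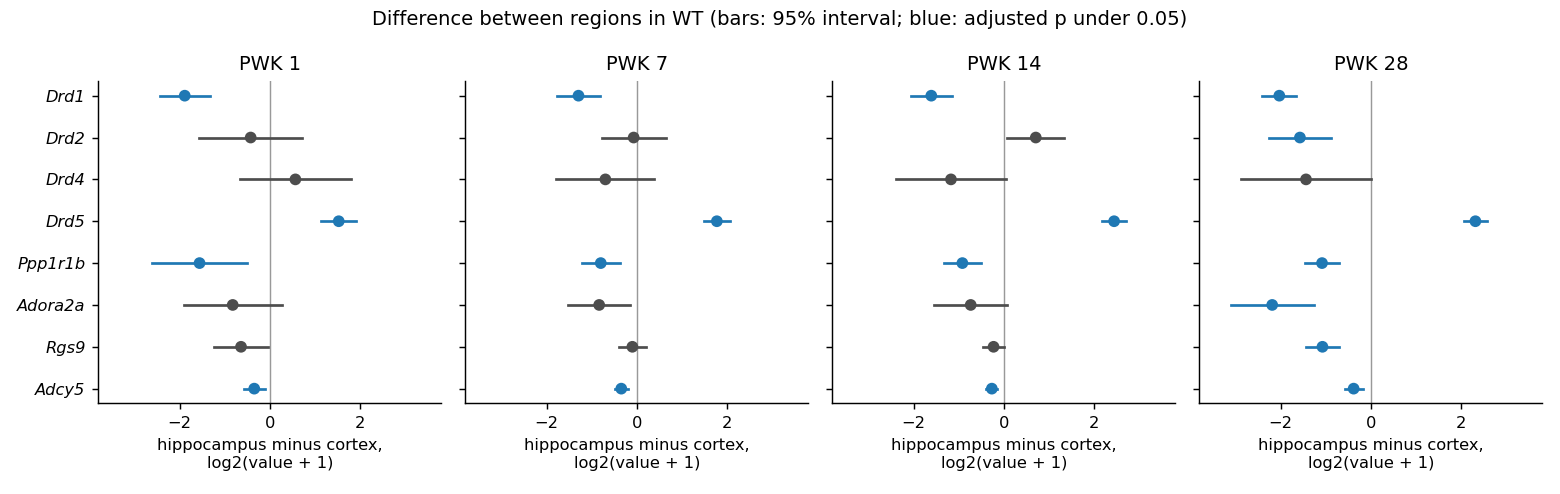
WT hippocampus minus WT cortex on the log2(value + 1) scale for each gene and age, with 95% intervals from limma (4 libraries per region). Blue marks an adjusted p under 0.05. Drd5 lies right of 0 in every panel and Drd1, Ppp1r1b and Adcy5 lie left of it, while Drd2, Adora2a and Rgs9 are called at PWK 28 alone.

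With age, the genes took different courses in WT mice. Drd5 rose between PWK 1 and PWK 7 in both regions, from 49.6 to 112.8 in cortex (1.18, adjusted p = 0.000135) and from 142.9 to 386.5 in hippocampus (1.43, adjusted p = 1.34e-06). Ppp1r1b rose from 347.8 to 1557 in hippocampus (2.12, adjusted p = 1.98e-06), where the choroid plexus level was 8.03 to 9.31 at PWK 1 and 7.11 to 11.8 at PWK 7, and by 1.86 with that level as a covariate (adjusted p = 1.03e-07). In cortex it rose from 1441 to 2653 (1.36, adjusted p = 0.0241), and without WT replicate 1 at PWK 1 from 668.8 (1.99, adjusted p = 5.15e-07). With that replicate kept, the call was lost without PWK 1 replicate 2, 3 or 4 or PWK 7 replicate 3 or 4 (adjusted p from 0.0542 to 0.0717). Rgs9 fell over the same weeks, by 0.91 in cortex (adjusted p = 0.0157; 0.55 without that replicate, adjusted p = 0.00619) and by 0.37 in hippocampus (adjusted p = 0.00109). Adora2a fell by 0.93 (adjusted p = 0.0019) and Adcy5 by 0.14 (adjusted p = 0.0114) in hippocampus. Drd4 was higher in cortex at PWK 7, at 4.10 to 13.9 against 0.807 to 3.21 (1.26, adjusted p = 0.0342), and this call was lost without PWK 1 replicate 2 or 4 or PWK 7 replicate 3 or 4 (adjusted p from 0.0548 to 0.113). Without WT replicate 1 at PWK 1 the difference of Drd4 was 1.36 (adjusted p = 0.04) and that of Drd5 1.33 (adjusted p = 2.89e-05). Of the 8 genes, 4 were called in cortex against 65.3% of all genes, and 5 in hippocampus against 61.3%.

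Between PWK 7 and PWK 28, 4 of the 8 genes were higher in WT cortex, where 22.2% of all genes were called. Drd1 went from 292.6 to 483.2 (0.72, adjusted p = 0.00382), Drd2 from 75.2 to 231.5 (1.59, adjusted p = 0.0132), Adora2a from 115.8 to 301.5 (1.32, adjusted p = 0.0381) and Rgs9 from 502.0 to 952.9 (0.91, adjusted p = 0.00623). Values of Drd2, Adora2a and Rgs9 overlapped between these ages. The striatal level was 7.80 to 8.74 at PWK 7 and 8.49 to 9.39 at PWK 28, and its part in the difference was not tested. The call of Adora2a was lost without PWK 28 replicate 1, 2 or 4 and without PWK 7 replicate 1, 2 or 3 (adjusted p from 0.0802 to 0.101). In hippocampus 0 of the 8 genes were called over these weeks, where 14.7% of all genes were. Drd5 came nearest, with means of 386.5 and 477.9 (0.31, adjusted p = 0.0681).

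The genes with the pattern most like that of Drd4 were sought over all 64 libraries among 17063 genes with a mean of at least 10. They were Tpm1, a tropomyosin gene (Pearson r = 0.88), Nptx2, a neuronal pentraxin (0.88), the unnamed gene ENSMUSG00000118505 (0.87), Trnp1 (0.87) and Npy, the neuropeptide Y precursor (0.86). In hippocampus at PWK 14, Nptx2 was at 472.8 ± 31.8 in WT and 4796 ± 2846 in KI mice, and Npy at 679.8 ± 78.4 and 6653 ± 3130 (SD, n = 4). These libraries share genotype and age, and r describes the likeness over them.

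For the other genes the deviations from the group means were compared, which leaves out genotype, age and region. Drd2, Rgs9, Adora2a and Adcy5 were near one another. The closest gene to Drd2 was Rgs9 (r = 0.88), followed by the striatal list genes Gng7 (0.86) and Syndig1l (0.83). Rgs9 was followed by Pde10a (0.85) and Penk (0.84), Adora2a by Rgs9 (0.78), Adcy5 (0.71) and Tgfa (0.71), and Adcy5 by Rgs9 (0.83), Pde10a (0.81) and Drd2 (0.79). Drd1 was closest to Cd4 (0.67), Pde10a (0.65) and Adora2a (0.65). Ppp1r1b was closest to Strip2 (0.85), Ccdc187 (0.79) and Spef2 (0.74), which within hippocampal groups also followed the choroid plexus level (r = 0.77, 0.85 and 0.86 over 32 libraries). Drd5 had the weakest likenesses, with Slc7a14 (0.62), Nmt1 (0.57) and Rtl6 (0.57). The 2 libraries with high striatal genes are among the 64 and contribute to these values.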

How the data were processed

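RNA was sequenced from frontal cortex and hippocampus of 64 mouse samples. The authors estimated transcript counts with Salmon on GRCm38, imported them with tximport and divided them by DESeq2 size and length factors. The deposited values are this normalised signal, not counts, so that count models could not be used and depth per library is unknown. The submitters' processing notes name Salmon 0.11.2, R 3.6.0 and DESeq2 1.19.11. The paper names a different version of each, and which set made the deposited values is open. Libraries came from a stranded kit, and the strand setting of the counting was not given in the sources used here. The paper names a total RNA kit and the sample labels an mRNA kit, and which was used is open.

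Gene names and positions came from GENCODE vM21. Here limma-trend (limma 3.58.1, R 4.3.3) was run on log2(value + 1) for the 8 libraries of a comparison, or the 16 of a difference of differences, over genes with a mean of at least 1, with Benjamini-Hochberg adjustment at 0.05 over all genes. The script was tested on simulated data. The genes and lists were chosen with earlier results of these data known. All 8 genes are named. Genes that are no members are named by likeness, 5 for Drd4 and 3 for each other gene. They are also named as at most 3 of smallest p per list and comparison. Others are the nearest genes of the table beside Drd4, and single genes of the striatal list.

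Replicates are mice. Both regions came from the same mice, but the labels do not say that equal numbers mark 1 mouse, so that regions were compared without pairing. The alternatives were other pseudocounts and filters, total-sum scaling, all 64 libraries in 1 fit, sample quality weights, a replicate block, the striatal level as a covariate and leaving out each library. The choroid plexus level as a covariate in hippocampus was added after seeing the data.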

Additional observations from a re-analysis of the deposited data

Results flagged for a closer look

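In groups of 4 libraries, a highest or lowest value was marked where its gap to the nearest library took up more of the group's range than Dixon's 95% critical value allows. Chance marks about 1 group in 20. Of 128 groups of the 8 genes, 17 were marked, and of 16 groups of the striatal list 2 were.

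Cortex of WT replicate 1 at PWK 1 was marked for 6 of the genes, as the highest of its group each time. It was at 841 for Drd1, 461 for Drd2, 3758 for Ppp1r1b, 793 for Adora2a, 1941 for Rgs9 and 6596 for Adcy5. Its striatal level was 9.813. Cortex of KI replicate 2 at PWK 14 was highest at 763 for Drd1, 554 for Drd2 and 684 for Adora2a, with a striatal level of 9.881.

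The remaining marks were scattered over groups. Drd1 was highest at 400 in WT cortex at PWK 14 (replicate 3) and lowest at 281 in KI hippocampus at PWK 14 (replicate 1). Drd4 was highest at 13.9 in WT cortex at PWK 7 (replicate 3) and at 12.4 in WT hippocampus at PWK 1 (replicate 4). Drd5 was lowest at 78.6 in WT cortex at PWK 28 (replicate 1). Ppp1r1b was lowest at 278 in WT hippocampus at PWK 1 (replicate 4). Adora2a was highest at 211 in WT cortex at PWK 7 (replicate 4). Adcy5 was lowest at 4192 in KI cortex at PWK 7 (replicate 3).

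The KI effect on Drd1 at PWK 28 differed between regions by 1.69 on the log2 scale (hippocampus minus cortex), by the interaction test in limma.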

How the results depend on the processing

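The number of the 8 genes called was recomputed 309 times under the alternatives, and in 296 of them it stayed within 1.5 times its main value. Of 734 recomputed differences of single genes called or not overlapping in the main result 699 kept their direction and side of the threshold, 34 lost their call, 1 moved by more than the spread between replicates and 0 reversed. Differences that were not called are not among these, and without the library that stood apart some changed sign: in KI cortex Drd2 at PWK 14 (0.20 to -0.82), Drd1 at PWK 14 (0.20 to -0.19) and Adora2a at PWK 1 (-0.54 to 0.12), and Drd2 between WT regions at PWK 1 (-0.42 to 0.26). In KI cortex at PWK 14 the count of genes without overlap lay between 2 and 4 when 1 library was left out, with 4 without KI replicate 2, and Drd4 was at 3.03 with a pseudocount of 5. With all 64 libraries in 1 fit, 2 genes were called in KI hippocampus at PWK 28 (4 otherwise), and 2 in WT hippocampus between PWK 1 and PWK 7 (5 otherwise, without Adora2a, Rgs9 and Adcy5). That fit also ended the calls of Ppp1r1b between WT regions at PWK 7 (adjusted p = 0.0589) and Drd1 between PWK 7 and 28 in WT cortex (adjusted p = 0.0578). With total-sum scaling Adcy5 lost its call between WT regions at PWK 1 (adjusted p = 0.137). Adora2a lost its call between PWK 7 and 28 in WT cortex with no filter (adjusted p = 0.0568) and with sample quality weights (adjusted p = 0.0595). The causes were not tested. Leaving out 1 library gave 2 to 5 called genes between WT regions at PWK 1, with 2 without hippocampal replicate 1 or 3. For WT cortex between PWK 1 and 7 it gave 2 to 4. For WT hippocampus between PWK 7 and 28 it gave 0 to 1, and total-sum scaling, sample quality weights and the replicate block each gave 1 (0 otherwise). The share of all genes called under each setting is not set beside these counts. A change in count is therefore not read as a result about the 8 genes.

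Equal replicate numbers did not pair the libraries at every age, since the lowest correlation of a pair over 12819 genes was under 0.1 in 6 of the 8 age-genotype sets. With a replicate block, 2 genes were called in KI cortex at PWK 28, 3 and 4 in KI hippocampus at PWK 14 and 28, and 0 in both regions at PWK 1 and 7. Between WT regions the block gave 4, 5, 5 and 7, between ages 4 and 4 in cortex and 5 and 1 in hippocampus, and 1 for the regional difference of the KI effect. The shares of all genes called with the block are not given here, so nothing is read from these counts. Since depth is unknown, low values such as those of Drd4 in WT mice have no counting interval.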
